A study of Mus musculus with 9 samples.

Results

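The miR-26 family was examined across 9 small RNA libraries from mouse quadriceps. Its members were taken by name as the 5 mature miRNAs mmu-miR-26a-5p, mmu-miR-26a-1-3p, mmu-miR-26a-2-3p, mmu-miR-26b-5p and mmu-miR-26b-3p, which are 5 of the 1966 mature miRNAs listed in the count table. Their level did not enter the rule. There were 3 libraries from each of 3 groups of mice, all 90 days old by the labels. WT mice were C57BL/6J with Mbnl1+/+ and Mbnl2+/+. Mbnl1KO mice were C57BL/6J, Mbnl1 deltaE3/deltaE3 and Mbnl2+/+, a deletion of exon 3 of Mbnl1 in the whole animal. Mbnl2KO mice were Mbnl1+/+ in the strain B6.C-Tg(CMV-cre)1Cgn/J, a strain named for a Cre transgene under the CMV promoter. Their Mbnl2 alleles are labelled deltaE2/deltaE2, deltaE2/deltaE3 and deltaE2/deltaE4 in replicates 1, 2 and 3, whereas the study describes a single allele pair, and they were analysed as 1 group. The strain of the Mbnl2KO mice differs from that of both other groups, so strain and genotype cannot be told apart in any comparison with them. The deleted genes are not measured by small RNA sequencing, so the genotype labels could not be checked in these counts.

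MicroRNAs are short RNAs cut from a hairpin precursor by Drosha and Dicer, and the bases near their 5' end, the seed, pair with target mRNAs and lower their output. MiR-26 is an abundant family in many differentiated tissues. Its hairpins sit in introns of the genes for small phosphatases of the RNA polymerase II tail (Ctdspl, Ctdsp2 and Ctdsp1), with which they are known to be produced together. In muscle cells miR-26a is known to act on Ezh2, a Polycomb methyltransferase that holds back muscle genes, and to favour differentiation. MBNL1 and MBNL2 are RNA-binding proteins known for regulating alternative splicing, and the study asked which miRNAs depend on them in skeletal muscle.

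The sequences show what the counts can and cannot separate. All 5 members were matched by name in the RefSeq table (GRCm38.p6). The mature sequences run from 5' to 3', with the seed (bases 2 to 8, counted from 1 at the 5' end) in capitals. The 5p members, which make up nearly all of the family's counts, are shown first.
miR-26a-5p: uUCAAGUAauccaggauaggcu
miR-26b-5p: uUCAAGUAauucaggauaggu
miR-26a-1-3p: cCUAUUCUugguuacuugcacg
miR-26a-2-3p: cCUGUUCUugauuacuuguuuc
miR-26b-3p: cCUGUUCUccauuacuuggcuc
MiR-26a-5p (22 bases) and miR-26b-5p (21 bases) share their seed and 19 of the 21 bases compared, and differ by C11U and C21U (the miR-26a-5p base first). None of the other mature miRNAs among the 1679 names in the RefSeq table has this seed. MiR-26a-2-3p and miR-26b-3p share a seed of their own and 18 of 22 bases, with the differences U9C, G10C, U19G and U20C. That seed is also found in 2 miRNAs outside the family, miR-7039-3p and miR-6932-3p. MiR-26a-1-3p differs from miR-26a-2-3p at 6 of 22 bases, 1 of them in the seed (G4A), and no other listed miRNA shares its seed.

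The 3 hairpins are shown with both arms in capitals, since the 3p arm is what tells the miR-26a hairpins apart.
Mir26a-1: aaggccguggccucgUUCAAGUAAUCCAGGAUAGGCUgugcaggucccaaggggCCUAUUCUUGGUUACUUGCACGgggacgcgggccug
Mir26a-2: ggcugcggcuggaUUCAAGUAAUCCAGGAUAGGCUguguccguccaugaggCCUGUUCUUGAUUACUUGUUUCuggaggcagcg
Mir26b: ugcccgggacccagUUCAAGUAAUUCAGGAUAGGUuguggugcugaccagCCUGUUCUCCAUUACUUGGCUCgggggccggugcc
Each hairpin matched the GRCm39 genome once on its chromosome, on the plus strand. Mir26a-1 lies at chr9:118860864-118860953 in Ctdspl, Mir26a-2 at chr10:126831399-126831482 in Ctdsp2, and Mir26b at chr1:74433469-74433553 in Ctdsp1. The GENCODE annotation places each on the strand of its host gene and in an intron, as none of the 7, 10 and 5 host transcripts that span them, respectively, has an exon there. Mature miR-26a-5p is identical in Mir26a-1 and Mir26a-2. The count table has 1 entry for it, so its reads could not be divided between chromosomes 9 and 10. MBNL proteins are known to bind short motifs in which a UGC or a CGC is followed by a U or a C. Searched on the transcribed strand, such motifs occur 3 times in Mir26b and in neither miR-26a hairpin. In Mir26b, UGCU starts at base 41 between the arms, and UGCC starts at base 1 before the 5p arm and at base 82 after the 3p arm. Of 110 mouse hairpins of 84 to 90 bases, 84 (76.4%) hold at least 1 of them.

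The total count was between 4761271 and 6277018 reads per library, and miR-1a-3p alone took 61.4% to 73.7% of it. Levels are given in CPM, read counts scaled to a common library size after TMM normalization over the 9 libraries, which lowers the weight of this single miRNA. A single read covers a mature miRNA whatever the length of its hairpin, so levels were not divided by length. No source used here names a calibration of reads to molecules, so levels and ratios of different miRNAs are those of reads. The study's methods collapse identical reads, and the sources name no other step that bears on copies made by PCR. Identical reads still entered the deposited counts, since miR-1a-3p had 4385815 in replicate 1 of WT. Intervals from counts therefore cover counting error only. Bulk muscle cannot separate fewer cells of a type from less RNA per cell. Skeletal muscle miRNAs were present in every library, with summed levels of 550244 to 959160 CPM. Of the 6 in that list, miR-208b-3p had a count in 1 library only.

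MiR-26a-5p carried the family in every library. Its level was 30581, 28648 and 28000 CPM in the WT libraries, 24678, 22120 and 26537 in Mbnl1KO, and 32937, 31723 and 32198 in Mbnl2KO. These values rest on 122665 to 190220 reads per library. All 3 Mbnl1KO libraries were below all 3 WT libraries, and all 3 Mbnl2KO libraries were above them, so that no pair of groups overlapped on this TMM scale. As a percentage of all counts, without TMM, every pair overlapped, with WT at 2.64 to 2.75, Mbnl1KO at 2.33 to 3.23 and Mbnl2KO at 2.66 to 3.26. The means were 29076 ± 1343 in WT, 24445 ± 2218 in Mbnl1KO and 32286 ± 612 in Mbnl2KO (SD, n = 3). MiR-26a-5p held rank 4 in each of the 9 libraries, among the entries that hold counts. MiR-486a-5p and miR-24-3p hold no count in any library, which was not read as absence from muscle. Ranks, neighbours and shares of all counts therefore leave such entries out, and are not standings in muscle. In WT miR-26a-5p stood between miR-30a-5p (40552 ± 5967) and let-7f-5p (18210 ± 2386), a let-7 member, and its range touched that of neither neighbour.

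MiR-26b-5p, with the same seed, was about an order of magnitude lower and varied little after TMM normalization. Its level was 3132, 3052 and 3293 CPM in WT, 3340, 3207 and 3249 in Mbnl1KO, and 3422, 3099 and 3497 in Mbnl2KO. The 3 groups overlapped in every pairing on this scale. Without TMM, as a percentage of all counts, the Mbnl1KO libraries (0.338 to 0.437) were above those of WT (0.270 to 0.322) and of Mbnl2KO (0.289 to 0.331). The TMM means were 3159 ± 123, 3266 ± 68.1 and 3339 ± 212 (SD, n = 3), and its rank was 17 to 21. In WT its neighbours were miR-125b-5p (3258 ± 284), whose range overlapped its own, and miR-23a-3p (2544 ± 110), whose range lay below. Among the 34 miRNAs with a mean of at least 1000 CPM, no other had a smaller spread within groups on the log2 scale (0.0650, against 0.0868 for miR-26a-5p and a median of 0.153). For miR-26a-5p, 2 of the 34 had a smaller spread.

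**Figure D1:**
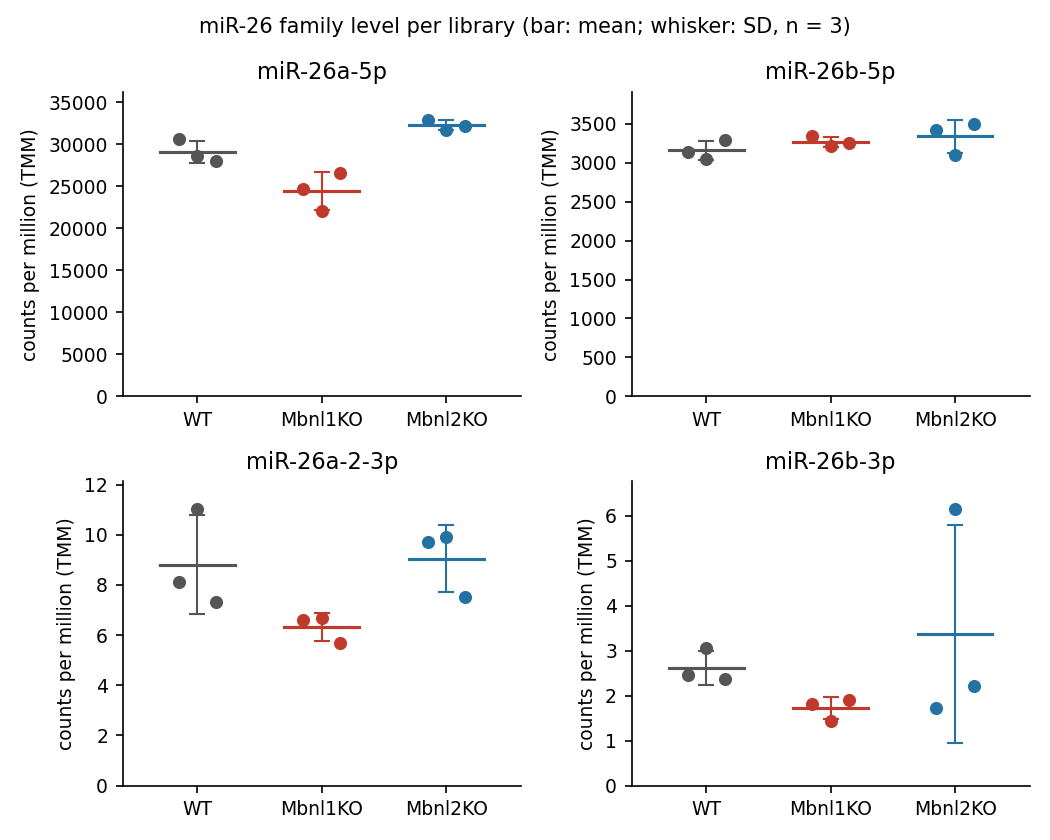
Level of the 4 members with more than a single read, in CPM after TMM normalization (vertical axes, each from 0), for each library (points) of WT, Mbnl1KO and Mbnl2KO, with the mean (bar) and SD (whisker). The miR-26a-5p points of the 3 groups do not overlap, from 22120 to 26537 in Mbnl1KO up to 31723 to 32937 in Mbnl2KO, whereas those of miR-26b-5p do.

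The 3p arms were rare. MiR-26a-2-3p had 43, 65 and 34 reads in the WT libraries, 51, 37 and 39 in Mbnl1KO, and 56, 58 and 34 in Mbnl2KO. On the scaled level it ranged from 7.30 to 11.0 CPM in WT, from 5.70 to 6.67 in Mbnl1KO and from 7.51 to 9.91 in Mbnl2KO. On this scale the Mbnl1KO libraries were below both other groups, which overlapped each other, and without TMM every pair overlapped.

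MiR-26b-3p had 13, 18 and 11 reads in WT, 14, 8 and 13 in Mbnl1KO, and 10, 36 and 10 in Mbnl2KO. The Mbnl1KO range, 1.44 to 1.90 CPM, lay below that of WT, 2.36 to 3.05, whereas without TMM they overlapped. Replicate 2 of Mbnl2KO stood apart at 6.15 CPM, against 1.74 and 2.21 in the other Mbnl2KO libraries, so the Mbnl2KO range enclosed that of WT.

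MiR-26a-1-3p was all but missing. A single read was counted in replicate 2 of Mbnl2KO, among 51607673 reads in the 9 libraries, and none elsewhere. The exact Poisson interval of that read is 0.0253 to 5.57 reads. The count of 0 allows a level of up to 0.189 CPM in WT and 0.149 in Mbnl1KO after TMM, with a limit of 3 counts over the 3 libraries of a group. The other miR-26a hairpin gave 417 reads of its 3p arm. MiR-26a-1-3p did not reach the mean normalized count of 10 needed for testing, so 4 of the 5 members were tested in each comparison.

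The comparison of Mbnl1KO with WT asks which miRNAs depend on MBNL1. No tested member passed, 0 of 4, where 105 of 317 miRNAs (33.1%) passed the threshold of 0.05 on the adjusted p (quasi-likelihood F test of edgeR, with Benjamini-Hochberg correction across all tested miRNAs). At an unadjusted p under 0.05 the count was also 0 of 4, against 134 of all 317. DESeq2 called 0 of 4 against 94 of all 317, and at an unadjusted p under 0.05 it had 1 of 4 against 125 of all 317. For miR-26a-5p the log2 fold change was -0.25 ± 0.149 (SE, 95% interval -0.55 to 0.04, adjusted p = 0.183). DESeq2's Wald test gave -0.28 (95% interval -0.53 to -0.04, unadjusted p = 0.0221, adjusted p = 0.0688), and edgeR with all 9 libraries in 1 fit gave -0.25 (95% interval -0.49 to -0.01, unadjusted p = 0.0387, adjusted p = 0.0973), so its adjusted p missed the threshold in all 3. After TMM the groups did not overlap for 3 of the 4 tested members, compared with 44.8% of all tested miRNAs. As a share of all counts they did not overlap for 1 of the 4, which was miR-26b-5p and none of those 3, compared with 40.7% of all tested miRNAs. For miR-26b-5p the log2 fold change was 0.05 ± 0.144 (95% interval -0.24 to 0.33, adjusted p = 0.824), an absolute change exceeded by 298 of the 317 miRNAs. It ran from 0.014 without replicate 2 of WT to 0.082 without replicate 2 of Mbnl1KO. With library totals it was 0.35 (95% interval 0.0069 to 0.69, unadjusted p = 0.0456, adjusted p = 0.113, edgeR). The 3p arms had negative estimates with wide intervals. MiR-26a-2-3p gave -0.49 (95% interval -1.09 to 0.11, adjusted p = 0.208) and miR-26b-3p gave -0.60 (95% interval -1.42 to 0.21, adjusted p = 0.257). With library totals these were -0.18 and -0.30, and without replicate 2 of WT that of miR-26a-2-3p was -0.30. The median over the 4 members was -0.37, beside -0.01 over all tested miRNAs. With library totals in place of TMM the estimate of miR-26a-5p turned to 0.056, as the median of all miRNAs moved up to 0.28. Relative to that median, miR-26a-5p was at -0.24 with TMM and -0.23 with totals, and miR-26b-5p at 0.055 and 0.066. Without replicate 2 of Mbnl1KO the estimate of miR-26a-5p was -0.16.

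The comparison of Mbnl2KO with WT uses the same WT libraries, so its values are not independent of those above. Again 0 of 4 tested members passed, where 17 of 293 miRNAs (5.8%) did, with edgeR's test. At an unadjusted p under 0.05 the count was 0 of 4, against 53 of all 293, and DESeq2 called 0 of 4 against 13 of all 293. MiR-26a-5p gave a log2 fold change of 0.17 ± 0.114 (SE, 95% interval -0.06 to 0.41, adjusted p = 0.473), and 0.097 without replicate 1 of Mbnl2KO. It was the 1 tested member whose groups did not overlap after TMM, compared with 23.2% of all tested miRNAs, and as a share of all counts there were 0 of 4 (16.0% of all tested). MiR-26b-5p gave 0.10 ± 0.120 (95% interval -0.15 to 0.35, adjusted p = 0.689), from 0.022 without replicate 1 of Mbnl2KO to 0.20 without its replicate 2. MiR-26a-2-3p was at 0.06 (95% interval -0.48 to 0.60, adjusted p = 0.940). MiR-26b-3p was at 0.38 (95% interval -0.53 to 1.29, adjusted p = 0.689), and without replicate 2 of Mbnl2KO its estimate was -0.36.

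Setting the knockouts against each other asks whether the loss of MBNL1 and of MBNL2 leave different miRNA levels. MiR-26a-5p was the 1 member of 4 that passed, where 83 of 309 miRNAs (26.9%) did with edgeR's test. Its level was lower in Mbnl1KO, with a log2 fold change of -0.40 ± 0.112 (SE, 95% interval -0.64 to -0.17, adjusted p = 0.0143), and each Mbnl1KO library was below each Mbnl2KO library on the TMM scale. An absolute change larger than this was found in 144 of the 309 tested miRNAs. Its groups and those of miR-26a-2-3p did not overlap after TMM, 2 of 4 members, compared with 47.9% of all tested miRNAs. As a share of all counts this held for 1 of 4, miR-26b-5p, compared with 39.8% of all tested miRNAs. MiR-26b-5p differed by -0.04 ± 0.109 (95% interval -0.27 to 0.20, adjusted p = 0.804), and by -0.020 without replicate 1 and -0.10 without replicate 2 of Mbnl2KO. For miR-26a-2-3p the difference was -0.52 (95% interval -1.06 to 0.01, adjusted p = 0.132), and for miR-26b-3p it was -0.97 (95% interval -2.004 to 0.06, adjusted p = 0.148). Without replicate 2 of Mbnl2KO the difference of miR-26b-3p was -0.19 (adjusted p = 0.774, edgeR). With library totals the differences were -0.24 for miR-26a-2-3p (adjusted p = 0.645, edgeR) and -0.71 for miR-26b-3p (adjusted p = 0.290, edgeR). The median over the 4 members was -0.46, beside 0.07 over all tested miRNAs.

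The call of miR-26a-5p between the knockouts was not firm. It was lost without replicate 1 of Mbnl2KO (log2 fold change -0.39, adjusted p = 0.0711), without a filter on low counts (log2 fold change -0.39, adjusted p = 0.0548) and with library totals (log2 fold change -0.11, adjusted p = 0.654), all in edgeR, while DESeq2's Wald test gave an adjusted p of 0.00217. Library totals raised the median of all miRNAs to 0.35 and the share of called miRNAs that were higher in Mbnl1KO from 56.6% to 94.6%. Relative to the median of all miRNAs, the change of miR-26a-5p was -0.47 with TMM and -0.46 with totals.

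**Figure D2:**
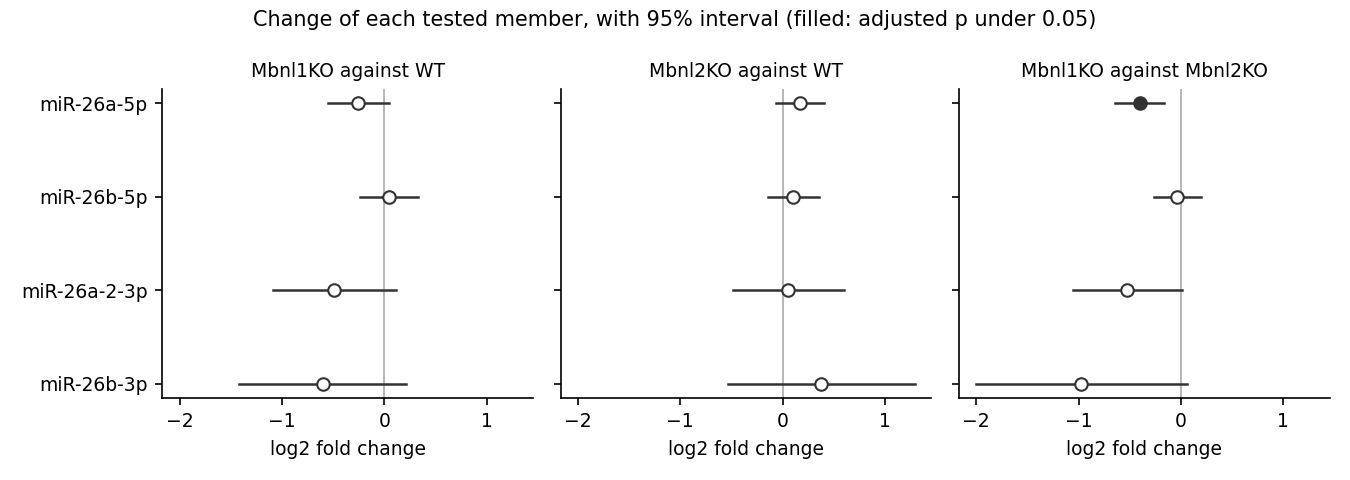
Log2 fold change (horizontal axes) of the 4 tested members in the 3 comparisons, with the 95% interval of edgeR's fit as a line and a filled point where the adjusted p was under 0.05. The 1 filled point is miR-26a-5p between Mbnl1KO and Mbnl2KO at -0.40, and the intervals of the 3p arms are the widest.

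Ratios within a library do not depend on scaling. There were 9.76, 9.39 and 8.50 reads of miR-26a-5p for each read of miR-26b-5p in WT, 7.39, 6.90 and 8.17 in Mbnl1KO, and 9.62, 10.2 and 9.21 in Mbnl2KO. The Mbnl1KO ratios were below those of both other groups, with a narrow gap between the highest of them (8.17) and the lowest WT ratio (8.50). The means were 9.22 ± 0.648, 7.48 ± 0.641 and 9.69 ± 0.518 (SD, n = 3). On the log2 scale the difference was -0.30 ± 0.0924 (SE) for Mbnl1KO minus WT and -0.37 ± 0.0836 for Mbnl1KO minus Mbnl2KO. Each comparison gave p = 0.1 in a two-sided exact permutation test, the smallest that 3 against 3 libraries can give, and 0.25 after Benjamini-Hochberg adjustment over 15 such comparisons. Between Mbnl2KO and WT the difference was 0.07 (exact permutation p = 0.5). Ratios to miR-26b-5p did not overlap between Mbnl1KO and WT for 44.9% of all tested miRNAs, and between Mbnl1KO and Mbnl2KO for 40.3%. The lack of overlap seen for miR-26a-5p was therefore shared by many other miRNAs.

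**Figure D3:**
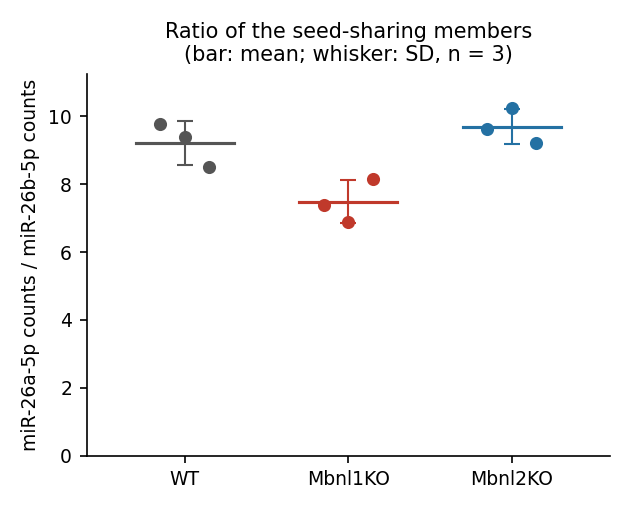
Reads of miR-26a-5p divided by reads of miR-26b-5p (vertical axis, from 0) in each library (points), with the group mean (bar) and SD (whisker). The Mbnl1KO points, 6.90 to 8.17, lie below the WT points, 8.50 to 9.76, and the Mbnl2KO points, 9.21 to 10.2.

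The family's share of the library depended on what it was measured against, and each base holds only the entries with counts. It made up 2.91%, 3.05% and 3.06% of all counts in WT, 3.66%, 2.67% and 3.25% in Mbnl1KO, and 3.52%, 3.59% and 2.95% in Mbnl2KO. These shares overlapped in every pairing (two-sided exact permutation p between 0.3 and 0.7). The share of miR-1a-3p, the main muscle miRNA, lay between 61.4% and 68.6% in Mbnl1KO, between 69.7% and 71.3% in WT and between 67.2% and 73.7% in Mbnl2KO, and a share of the total moves with it. Of the counts other than miR-1a-3p, the family took 10.2%, 10.2% and 10.1% in WT. The values were 9.48%, 8.50% and 9.40% in Mbnl1KO and 11.6%, 10.9% and 11.2% in Mbnl2KO. On this base the groups were ordered Mbnl1KO, WT, Mbnl2KO with no overlap (exact permutation p = 0.1 for each pair, the smallest possible). The same share did not overlap for 42.4% of all tested miRNAs except miR-1a-3p between Mbnl1KO and WT, for 23.3% between Mbnl2KO and WT, and for 44.5% between the knockouts.

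**Figure D4:**
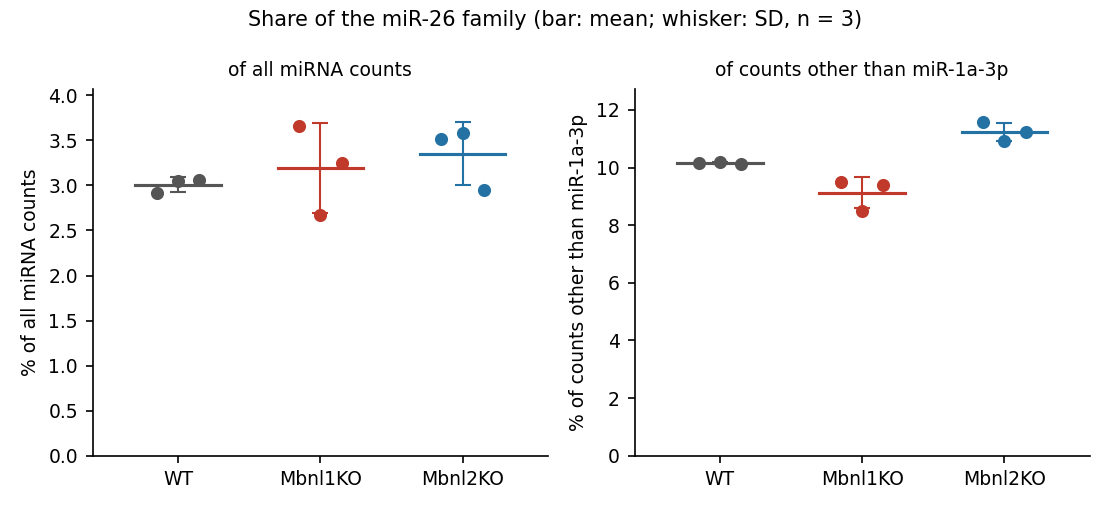
Share of the miR-26 family in percent (vertical axes, from 0) of all miRNA counts (left) and of the counts other than miR-1a-3p (right) in each library (points), with the group mean (bar) and SD (whisker). The groups overlap on the left and do not on the right, where Mbnl1KO lies between 8.50% and 9.48% and Mbnl2KO between 10.9% and 11.6%.

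The arms of a hairpin are cut from the same molecule, and 1 of them is usually kept. For miR-26b, the one family hairpin with both arms of its own in the table, the 5p arm exceeded the 3p arm by 1231, 972 and 1333 times in WT, 1776, 2093 and 1648 times in Mbnl1KO, and 1878, 497 and 1507 times in Mbnl2KO. The Mbnl1KO ratios were above all WT ratios, and replicate 2 of Mbnl2KO stood below all others. The log2 ratio was higher in Mbnl1KO than in WT by 0.65 ± 0.170 (SE, two-sided exact permutation p = 0.1, the smallest possible, and 0.25 adjusted over the 15 comparisons). The groups did not overlap in this ratio for 20.5% of the 190 pairs of arms with over 10 counts per library. The 3p arm stood behind these ratios with only 8 to 18 reads a library in those groups. It made up 0.0450% to 0.0584% of the hairpin's reads in Mbnl1KO and 0.0717% to 0.09997% in WT, and the 95% Wilson intervals of every Mbnl1KO library overlapped those of every WT library. Replicate 2 of Mbnl2KO had 0.198% on the 3p arm (36 of 18167 reads, Wilson interval 0.143 to 0.274), and its interval lay above those of the other libraries except WT replicate 2 (0.0632 to 0.158). Over the 9 libraries the log2 ratio of the arms was 10.31. Of the 190 pairs, 22 (11.6%) had a larger absolute ratio, and the median was 5.24.

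**Figure D5:**
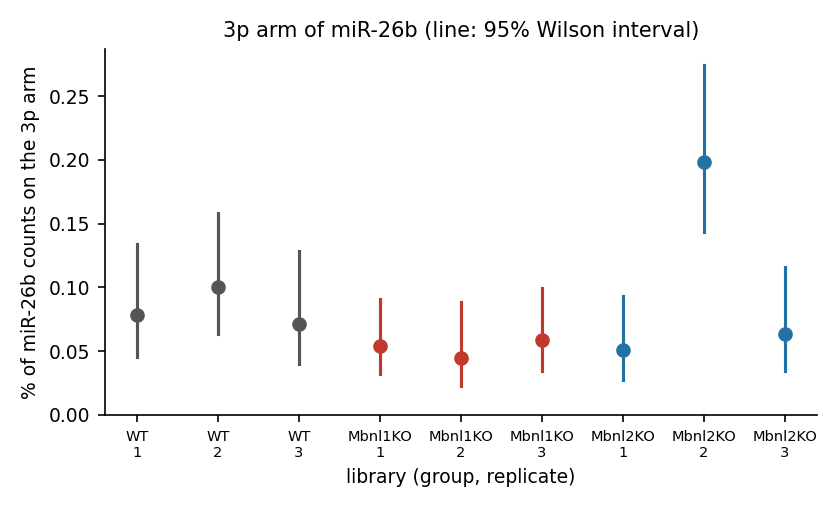
Percent of miR-26b reads on the 3p arm (vertical axis, from 0) in each library, with the 95% Wilson interval as a line. Replicate 2 of Mbnl2KO is at 0.198%, and the other 8 libraries lie between 0.0450% and 0.09997%.

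Reads of miR-26a-5p were 2578 to 3779 times those of miR-26a-2-3p in WT, 3271 to 4599 times in Mbnl1KO and 3173 to 4224 times in Mbnl2KO. This is not the arm ratio of 1 hairpin, because both hairpins give miR-26a-5p. The ranges overlapped in every pairing (two-sided exact permutation p between 0.6 and 0.7).

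Over the 9 libraries, the members did not vary as a block. The Pearson correlation of log2 levels was 0.62 between miR-26a-5p and miR-26a-2-3p, 0.51 between miR-26a-5p and miR-26b-3p, and 0.15 between miR-26a-5p and miR-26b-5p. Between the arms of miR-26b it was -0.55. These are descriptions, since the libraries share their group means and their scaling. The 3p arms had 8 to 65 reads a library, so counting error can weaken their correlations, and miR-26b-5p varied little within groups. Among 306 miRNAs outside the family, those most like miR-26a-5p were miR-181a-2-3p (0.904), miR-151-5p (0.888), miR-204-5p (0.886), miR-30a-3p (0.873) and miR-378a-3p (0.861). Their Spearman correlations were 0.783, 0.75, 0.917, 0.867 and 0.567 in the same order, lowest for miR-378a-3p. MiR-378a-3p, which comes from an intron of the metabolic coactivator gene Ppargc1b, had mean levels of 5266, 2143 and 4986 CPM in WT, Mbnl1KO and Mbnl2KO. MiR-181a-2-3p had 189, 113 and 199 CPM. Both were thus lowest in Mbnl1KO, like miR-26a-5p. Those most like miR-26b-5p were miR-1839-5p (0.738), miR-20a-5p (0.681), miR-145a-3p (0.672), miR-376c-3p (0.663) and miR-31-5p (0.646), with weaker Pearson correlations than any of the former.

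A list of 15 miRNAs known to act in myogenic differentiation places the family beside its functional companions. Of these, 13 were tested, and miR-486a-5p and miR-24-3p were listed at 0. A 0 here says only that the table holds no count for that entry, and was not read as absence from muscle. In Mbnl1KO against WT 4 rose and 1 fell, again by edgeR's test (33.1% of all tested miRNAs passed). MiR-206-3p, a miRNA of regenerating and slow fibres, rose by 1.93 ± 0.150 on the log2 scale (adjusted p = 4.37e-21), and miR-27b-3p, which acts on Pax3, rose by 0.72 ± 0.143 (adjusted p = 1.82e-05). MiR-133b-3p rose by 0.71 and miR-322-5p by 0.69. MiR-378a-3p fell by 1.30 (log2, SE 0.151). In Mbnl2KO against WT 1 of the 13 rose (5.8% of all tested passed), miR-206-3p by 0.89 ± 0.143 (adjusted p = 0.000757). The same 5 of the 13 passed between the knockouts, 4 higher and 1 lower in Mbnl1KO (26.9% of all tested passed). The median of the 13 was 0.14, -0.01 and 0.22 in the 3 comparisons, beside -0.01, 0.02 and 0.07 over all tested miRNAs. Among the miR-26 members, the lowest adjusted p against WT in edgeR's main fits was 0.183, for miR-26a-5p in Mbnl1KO. Over the alternatives the lowest was 0.0688, for the same member and comparison with DESeq2's Wald test.

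Marker miRNAs of other cells were measured beside the miR-26a-5p difference. The 7 of blood and immune cells had a summed level between 375 and 413 CPM in WT, between 382 and 504 in Mbnl1KO and between 384 and 441 in Mbnl2KO, with miR-142a-3p listed at 0. Between the knockouts, by edgeR's test, 1 of its 5 tested members was higher in Mbnl1KO (miR-155-5p, adjusted p = 0.00178) and 2 were lower (miR-142a-5p, adjusted p = 0.00580, and miR-223-3p, adjusted p = 0.000957), beside 26.9% of all tested miRNAs called. The 7 of connective tissue and vessel wall had a summed level between 6302 and 7057 CPM in WT, between 5745 and 8453 in Mbnl1KO and between 7521 and 8690 in Mbnl2KO, with miR-126a-3p and miR-126a-5p listed at 0. Of its 5 tested members, 1 was lower in Mbnl1KO than in Mbnl2KO (miR-199a-3p, adjusted p = 0.0274, edgeR), a share that does not exceed the 26.9% of all tested miRNAs. Against WT, Mbnl1KO had the same calls and directions in both lists, beside 33.1% of all tested miRNAs. In Mbnl2KO against WT, 0 of 5 were called in the blood and immune list. In the connective tissue list 1 of 5 was, miR-143-3p, higher in Mbnl2KO, beside 5.8% of all tested miRNAs. The summed level of the skeletal muscle list was 550244 to 720705 in Mbnl1KO, 722701 to 959160 in Mbnl2KO and 790876 to 902176 in WT. Most of this sum is miR-1a-3p, whose log2 fold change between the knockouts was -0.40 (adjusted p = 0.0627, not called). The members of this list that were called between the knockouts were higher in Mbnl1KO, miR-133b-3p by 0.88 and miR-206-3p by 1.06 on the log2 scale (2 of 5 tested, none lower), and the median of the 5 was 0.88. The part of cell composition in the miR-26a-5p difference was not tested.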

How the data were processed

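Total RNA of quadriceps was made into small RNA libraries (NEXTflex kit) and sequenced. The authors deposited 1 table of raw counts, with 1 row per mature miRNA and 1 column per library. By the study's methods, adapters were clipped, identical reads collapsed, reads aligned to miRBase precursors in sense without mismatch, and reads within a mature miRNA summed. Whether exactly this made the deposited table is not given in the sources used here. The study lists miR-24-3p as changed in both knockouts, whereas the deposited table holds no count for it. The deposited counts are thus not in every entry those behind the study's results. The submitters' processing notes name DESeq2.

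The 6 libraries of every 2 groups were compared with edgeR 4.0.16 (quasi-likelihood, robust, TMM, Benjamini-Hochberg) in R 4.3.3, for miRNAs whose mean count over DESeq2 size factors exceeded 10. DESeq2 1.42.0 was an alternative. Ratios used a pseudocount of 0.5 and exact permutation tests in SciPy 1.17.1. The self-test ran on simulated counts. The named miRNAs were the members, the 5 most correlated with each of miR-26a-5p and miR-26b-5p, and the called ones of the myogenic list. Members and lists were chosen with earlier results of these data known. Alternatives were other scalings, filters, thresholds, DESeq2's Wald test, all 9 libraries in 1 fit, the replicate block, each library left out, a pseudocount of 1 and a base without miR-1a-3p. TMM before the filter and group overlap as a share of all counts were added after seeing the data. No source used here states that each replicate is a separate mouse, so p-values measure the spread between these libraries.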

Additional observations from a re-analysis of the deposited data

How the results depend on the processing

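The number of members called between the knockouts, 1, was 0 with a threshold of 0.01, with library totals and with no filter, and 0 to 1 when each library was left out. No member was called against WT under any alternative. Reversed estimates were those of miR-26a-5p in Mbnl1KO against WT with library totals (0.056), and of miR-26b-5p between the knockouts with totals (0.27) and with totals without miR-1a-3p (0.032). With each library left out, Mbnl2KO against WT gave -0.058 to 0.26 for miR-26a-2-3p and -0.36 to 0.66 for miR-26b-3p. The log2 arm ratio of miR-26b (Mbnl2KO minus WT) ran from -0.43 to 0.53, and that of miR-26a-5p to miR-26a-2-3p from -0.078 to 0.20 (Mbnl2KO minus WT) and from -0.033 to 0.23 (Mbnl1KO minus Mbnl2KO). The share of all counts, in percentage points, ran from -0.0482 to 0.451 (Mbnl1KO minus WT) and from -0.393 to 0.106 (between the knockouts). On the base without miR-1a-3p the 3 differences were -1.02, 1.09 and -2.12. Calls over all miRNAs numbered 68 of 167 tested in Mbnl1KO against WT with a mean above 100, beside 105 of 317. In Mbnl2KO against WT they numbered 6 with a threshold of 0.01, 7 with totals, 9 of 155 tested with a mean above 100, 11 with all 9 libraries in 1 fit and 6 to 25 with each library left out. Between the knockouts they numbered 45 with a threshold of 0.01 and 55 to 93 with each library left out. With totals, 89.2% of calls were higher in Mbnl1KO than in WT, where TMM gave 57.1%. The cause was not tested.

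With the replicate block, miR-26a-5p between the knockouts gave -0.41 (adjusted p = 0.0482, edgeR), and calls numbered 92, 21 and 80 in the 3 comparisons. The replicate numbers were not taken as pairs, because correlations of same-numbered libraries ran from -0.15 to 0.15. Rare 3p arms, with 8 to 65 reads a library, limit what can be seen of them.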
